A study of Mus musculus with 6 samples.

Results

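The nuclear lamina and the LINC complex (linker of nucleoskeleton and cytoskeleton) were followed through 10 genes: the lamin genes Lmna, Lmnb1 and Lmnb2, the lamin B receptor gene Lbr, the LEM protein genes Emd and Tmpo, the SUN genes Sun1 and Sun2 and the nesprin genes Syne1 and Syne2. They were found by matching these symbols to the Ensembl identifiers of the count tables, and all 10 of 49315 genes were matched, each to 1 identifier. RNA of the gastrocnemius, a calf muscle, was sequenced from mice of mixed C57BL/6 129 strain at 3 months of age, with 3 libraries labelled WT and 3 labelled mKO, in which Hnrnpu was deleted in muscle only. The series addresses how Hnrnpu, which encodes a nuclear RNA-binding protein, controls expression in this muscle. The sources used here do not state the Cre driver, the deleted exons, the sex or any floxed allele in WT. Nothing in the labels says whether each library is a separate animal, so the p-values refer to library spread, which may be technical.

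Lamins form a filament meshwork under the inner nuclear membrane. Lmna gives the A-type lamins A and C by alternative splicing, and Lmnb1 and Lmnb2 give the B-type lamins, which stay bound to the membrane through a farnesyl group. Lbr and the LEM proteins sit in or near the inner membrane and hold chromatin to the lamina. SUN proteins cross the inner membrane and bind the tails of nesprins, which cross the outer membrane and reach the cytoskeleton. In muscle fibres this bridge holds the many nuclei in place, and in people mutations of LMNA or EMD cause Emery-Dreifuss muscular dystrophy.

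Totals ranged from 32108684 to 42344238 counts per library, and a member had between 106 and 12074 counts in a library. Levels are given as CPM, the counts relative to a library total scaled by TMM factors, which set the bulk of genes equal between libraries. Of 16650 genes tested, 37.0% were called changed at an edgeR adjusted p under 0.05, and all 10 members were tested. Over all tested genes the median log2 fold change was 0.023, and 0.489 when library totals replaced TMM; small changes turned direction with it. The targeted gene Hnrnpu had 233, 235 and 247 CPM in WT replicates 1 to 3 and 209, 210 and 205 CPM in the mKO-labelled replicates 1 to 3. This gave -0.20 on the log2 scale (SE 0.10; adjusted p = 0.147 by edgeR), and 0.27 with library totals. A count over all exons does not check a deletion of some of them. Muscle fibre markers were abundant in both groups and lower in mKO libraries: all 10 were tested, 8 fell, and they summed to 288000 to 310000 CPM in WT and 178000 to 210000 CPM in mKO libraries. With library totals 6 of the 10 were called lower. Bulk counts cannot tell fewer cells of a type from less RNA per cell.

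With TMM factors, Lmna rose and Sun2 fell, each by a factor of about 2. The genes of the B-type lamins, emerin and Sun1 did not pass the test. Of the 10 members 1 was called higher, where 18.2% of all genes tested were, and 4 were called lower, where 18.9% were. Lmna was the 1 member called and at least 2-fold higher (8.77% of all genes) and Sun2 the 1 called and at least 2-fold lower (5.39%). The lower members were Sun2, Tmpo, Lbr and Syne2, and the median log2 fold change of the 10 was -0.24, against 0.023 for all genes tested. With library totals 5 members were called higher (49.0% of all genes) and 1, Sun2, lower (6.75%), and the median was 0.23 against 0.489. Lmna and Sun2 kept their direction and their call under each of the 16 alternatives, but not their size. With library totals the log2 fold change was 1.53 for Lmna and -0.58 for Sun2. No overlap between the groups was seen for 6 members, where 49.3% of all genes had none.

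**Figure D1:**
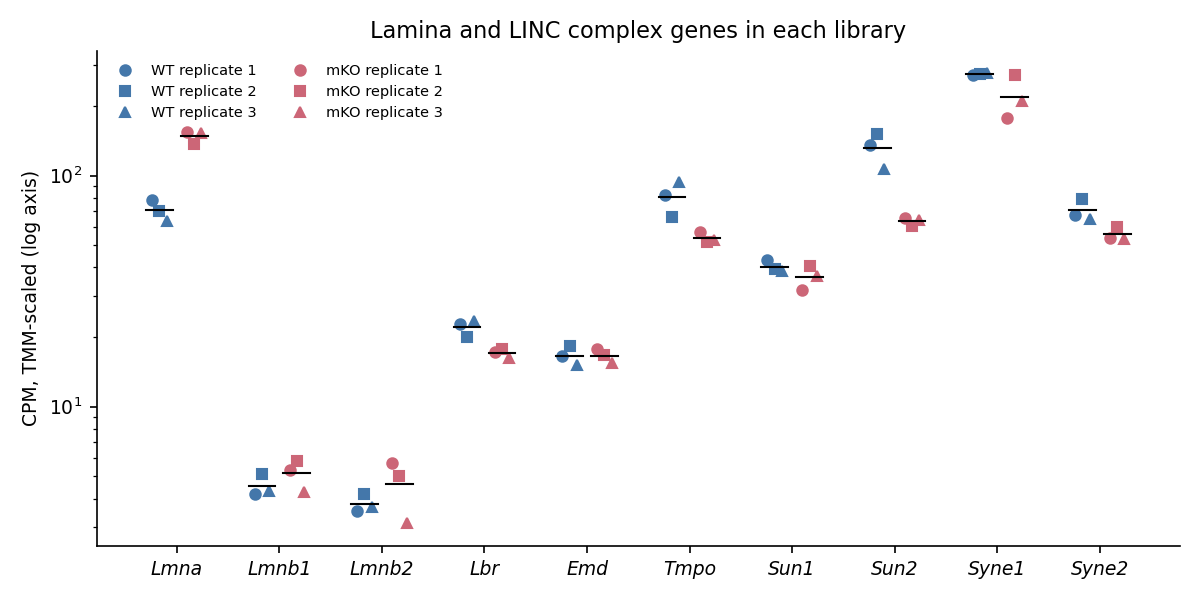
TMM-scaled CPM (log axis) of the 10 genes in each of the 6 libraries, with a bar at the group mean of 3 libraries. Lmna stands at 63.3 to 78.6 CPM in WT and 137 to 155 CPM in mKO libraries, Sun2 at 107 to 151 against 60.5 to 65.5 CPM, and mKO replicate 2 of Syne1 lies close to WT.

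Among the lamins, Lmna (ENSMUSG00000028063, minus strand of chromosome 3, 88480147 to 88509956 in GRCm38) had 78.6, 70.4 and 63.3 CPM in WT replicates 1 to 3. The mKO replicates 1 to 3 had 155, 137 and 152 CPM, so the lowest mKO library lay far above the highest WT library. The group means were 70.8 ± 7.67 and 148 ± 9.86 CPM (SD, n = 3), a log2 fold change of 1.06 (SE 0.12, 95% interval 0.81 to 1.32, edgeR adjusted p = 2.41e-05), or 2.09-fold. With library totals the value was 1.53 on the log2 scale. The count sums lamin A and lamin C transcripts and cannot separate them. The gene has 13 exon blocks, and none of its exonic bases are shared with another gene of the tables.

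The B-type lamin genes were the least abundant members. Lmnb1, on chromosome 18, had 4.18, 5.12 and 4.31 CPM in WT and 5.33, 5.82 and 4.29 CPM in mKO libraries. Its groups overlapped, with a log2 fold change of 0.18 (95% interval -0.21 to 0.58, edgeR adjusted p = 0.466). Lmnb2, on chromosome 10, had 3.54, 4.20 and 3.66 CPM in WT, and 5.68, 5.01 and 3.13 CPM in mKO libraries, where replicate 3 was the lowest of all 6. Its log2 fold change was 0.28 (95% interval -0.21 to 0.77, edgeR adjusted p = 0.357). The upper limits of both intervals, which hold for TMM factors only, lie below 1, the value of a 2-fold rise. With library totals both were called higher (log2 0.65 and 0.75). Between 106 and 259 counts a library stand behind these values, and counting error gave a coefficient of variation of 6.90 to 9.01%, against 28.7% observed for Lmnb2 in mKO.

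Lmna took a larger share of the lamin transcripts in each mKO library than in each WT library. Per kb of exon, Lmna gave 85.8, 81.7 and 82.4% of lamin counts in WT and 89.5, 88.2 and 92.3% in mKO libraries. The ratio of Lmna to the 2 B-type genes was 6.02, 4.46 and 4.70 in WT and 8.51, 7.49 and 12.0 in mKO libraries. The groups did not overlap, and the mean log2 ratio was 0.86 higher in mKO (exact two-sided permutation p = 0.1, the smallest that 3 against 3 libraries can give). A ratio within a library does not depend on how libraries are scaled.

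Lbr encodes a membrane protein that binds B-type lamins and heterochromatin and is also a sterol reductase. It lies on chromosome 1 (181815335 to 181843046), 3.48 Mb beyond the end of Hnrnpu. It had 22.8, 20.05 and 23.4 CPM in WT and 17.2, 17.8 and 16.3 CPM in mKO libraries, with every mKO library below every WT library. The fall was small (log2 -0.37, SE 0.12, edgeR adjusted p = 0.0246). Adjusted p rose to 0.0676 when WT replicate 1 was left out, 0.0747 for WT replicate 3, 0.0632 for mKO replicate 1 and 0.114 for mKO replicate 3, each ending the call. It also ended with upper-quartile factors (0.0551), and the direction turned with library totals (log2 0.10). Of its exonic bases 9.24% are shared with Dnah14 on the other strand, which had at most 10 counts in a library.

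Of the LEM protein genes, Tmpo fell and Emd did not pass the test. Tmpo encodes the lamina-associated polypeptides 2, whose alpha form binds A-type lamins inside the nucleus. Tmpo had 82.3, 66.4 and 94.0 CPM in WT and 57.1, 51.6 and 52.7 CPM in mKO libraries, so WT varied widely (coefficient of variation 17.1%) and mKO little (5.39%). It fell to 66.5% of WT (log2 -0.59, SE 0.13, edgeR adjusted p = 0.00359), a call that ended with library totals (log2 -0.12, adjusted p = 0.447). Emd, the X-linked gene of emerin, had 16.5, 18.3 and 15.1 CPM in WT and 17.7, 16.8 and 15.4 CPM in mKO libraries. Its group means were both 16.6 CPM, with a 95% interval of the log2 fold change from -0.27 to 0.27 (edgeR adjusted p = 0.999), and with library totals it was called higher (log2 0.47). Of its exonic bases 13.6% are shared with Gm14686 on the same strand, which had 0 counts in all 6 libraries. The ratio of Emd to Tmpo per kb was 0.878, 1.20 and 0.701 in WT and 1.36, 1.42 and 1.27 in mKO libraries, without overlap. The mean log2 ratio was 0.58 higher in mKO (exact two-sided permutation p = 0.1, the smallest possible).

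Of the SUN genes, whose proteins are partly interchangeable in anchoring nuclei, Sun2 changed. Sun2 (chromosome 15, 79724070 to 79742536, minus strand) had 136, 151 and 107 CPM in WT replicates 1 to 3. It had 65.5, 60.5 and 64.5 CPM in the mKO replicates, all well under the lowest WT library. The means were 131 ± 22.5 and 63.5 ± 2.63 CPM (SD, n = 3), a fall by 1.05 on the log2 scale (SE 0.13, 95% interval -1.33 to -0.76, edgeR adjusted p = 6.64e-05). With library totals the log2 fold change was -0.58 and still called.

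Sun1 had 42.9, 39.5 and 38.5 CPM in WT and 31.8, 40.4 and 36.7 CPM in mKO libraries, and the groups overlapped. Its log2 fold change was -0.15 (95% interval -0.40 to 0.10, edgeR adjusted p = 0.334), and 0.31 with library totals, where it was called. Sun1 counts per kb were 0.207, 0.171 and 0.236 of those of Sun2 in WT and 0.318, 0.437 and 0.372 in mKO libraries. Sun2 remained the more abundant in all 6 libraries. The mean log2 ratio was 0.88 higher in mKO, without overlap of the groups (exact two-sided permutation p = 0.1, the smallest possible).

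**Figure D2:**
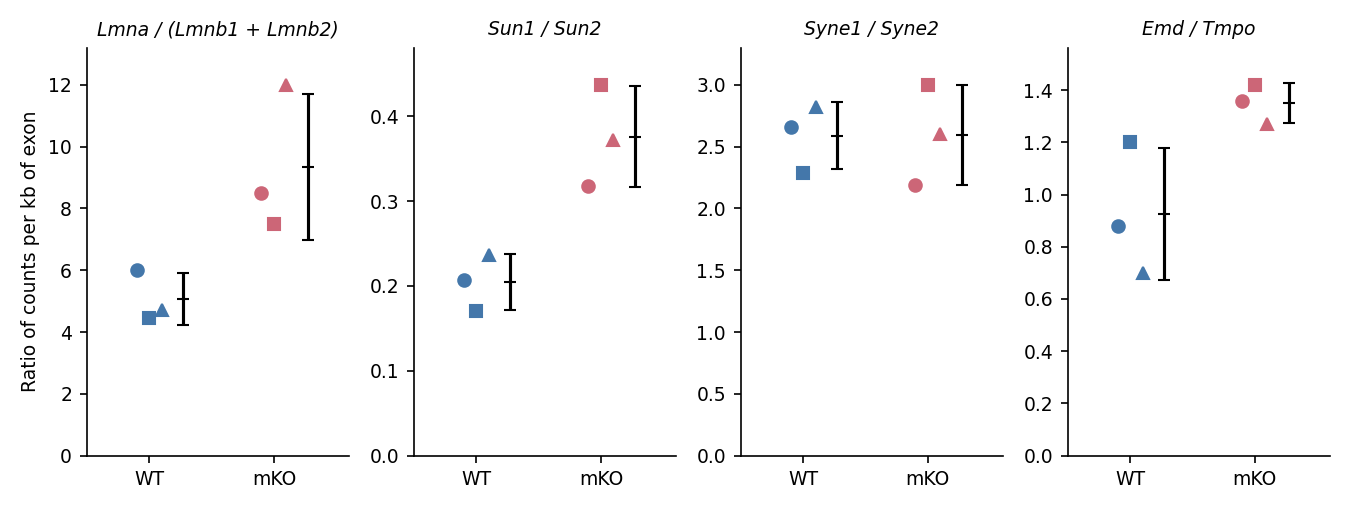
Ratios of counts per kb of exon within each library (points), with the mean and SD of 3 libraries beside them. The ratios of Lmna to B-type lamins, Sun1 to Sun2 and Emd to Tmpo are higher in each mKO library than in each WT library, and those of Syne1 to Syne2 overlap.

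The nesprins tie SUN proteins to actin, microtubule motors and intermediate filaments. Syne1 had 273, 275 and 277 CPM in WT, a coefficient of variation of 0.808%, below the 1.06% that counting error gives. The mKO libraries had 178, 271 and 210 CPM (21.5%), with replicate 2 just below the WT libraries. The log2 fold change was -0.32 (95% interval -0.63 to -0.02) and did not pass after adjustment over all genes (edgeR adjusted p = 0.0913). It passed without mKO replicate 2 (log2 -0.50, adjusted p = 0.01) and without a low-count filter (log2 -0.32, adjusted p = 0.0475), and turned to 0.14 with library totals.

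Single mKO libraries also differed with gene length, and the listed exons of Syne1 sum to 40491 bp. Among 81 genes with over 20000 bp of exon and a mean of at least 5 CPM, the median gene lay 0.15 above the other mKO libraries in replicate 2 and 0.16 below them in replicate 1, on the log2 scale. Syne1 itself lay 0.49 above in replicate 2 and 0.42 below in replicate 1. The part of this length trend in the Syne1 values was not tested. Between the groups, the same 81 genes had a median log2 fold change of -0.01.

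Syne2 had 67.7, 79.5 and 64.9 CPM in WT and 53.8, 59.6 and 53.3 CPM in mKO libraries, without overlap. It fell slightly (log2 -0.35, SE 0.11, edgeR adjusted p = 0.0306). The call was lost when WT replicate 2 (adjusted p = 0.0743), mKO replicate 1 (0.0882) or mKO replicate 3 (0.126) was left out, and with upper-quartile factors (0.0684), and with library totals the value was 0.12. The ratio of Syne1 to Syne2 per kb was 2.66, 2.29 and 2.82 in WT and 2.19, 3.00 and 2.60 in mKO libraries, and the groups overlapped (exact two-sided permutation p = 1). Giant and short forms of both nesprins are summed in these counts.

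**Figure D3:**
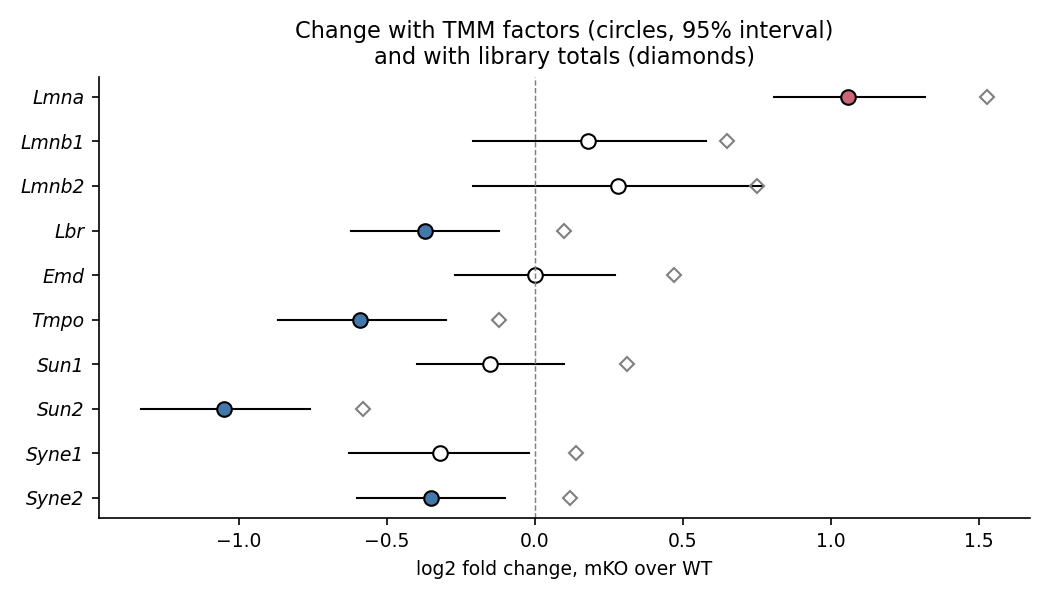
Log2 fold change, mKO over WT, of the 10 genes with TMM factors (circles with 95% intervals, red called higher, blue called lower, white not called) and with library totals (grey diamonds). Library totals move all 10 values up, and those of Lbr, Sun1, Syne1 and Syne2 cross 0.

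The order of the levels differed between the groups at its top. In CPM per kb of exon (RPKM, on the TMM scale), WT muscle had Sun2 first (26.4 ± 4.53, SD, n = 3) and Lmna next (12.1 ± 1.31). In mKO muscle Lmna was first (25.4 ± 1.69) and Sun2 next (12.8 ± 0.530). In WT these were followed by Tmpo (7.36 ± 1.26), Syne1 (6.80 ± 0.0549) and Emd (6.61 ± 0.642), of which neighbours overlapped. Sun1 (5.31 ± 0.304), Lbr (4.64 ± 0.373), Syne2 (2.65 ± 0.288), Lmnb1 (1.53 ± 0.173) and Lmnb2 (0.887 ± 0.0818) came after them without overlap of neighbours. In mKO muscle Emd (6.61 ± 0.475), Syne1 (5.43 ± 1.17), Tmpo (4.89 ± 0.263) and Sun1 (4.78 ± 0.566) overlapped as neighbours. Lbr (3.59 ± 0.165), Syne2 (2.08 ± 0.130), Lmnb1 (1.74 ± 0.263) and Lmnb2 (1.08 ± 0.309) again stood apart. The exon length covers all listed transcripts, so levels of genes with short and giant forms are understated where the short form prevails.

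Promoters are shown for Lmna, which rose, and for 3 of the genes that fell, Sun2, Tmpo and Lbr, which each hold a pair of CCAAT boxes. Not shown are Sun1, which also holds 2 and did not pass, and Syne2, which fell and holds 0. Each line gives the 250 bases before a RefSeq start of the gene (GRCm38.p6). It runs 5′ to 3′ on the strand of the gene, which is minus for all 4. Lmna and Tmpo have 2 RefSeq starts each, and their other start is not shown. The windows of Lmna, Tmpo and Lbr lie inside the annotated spans of these genes. Capitals mark CCAAT, or its complement ATTGG, at chr3:88503353-88503602, chr15:79742537-79742786, chr10:91171620-91171869 and chr1:181842402-181842651.
Lmna: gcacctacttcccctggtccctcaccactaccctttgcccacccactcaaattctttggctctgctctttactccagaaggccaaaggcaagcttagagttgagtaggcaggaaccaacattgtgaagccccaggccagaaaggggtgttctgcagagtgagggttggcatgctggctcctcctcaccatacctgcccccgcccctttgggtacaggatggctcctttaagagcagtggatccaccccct
Sun2: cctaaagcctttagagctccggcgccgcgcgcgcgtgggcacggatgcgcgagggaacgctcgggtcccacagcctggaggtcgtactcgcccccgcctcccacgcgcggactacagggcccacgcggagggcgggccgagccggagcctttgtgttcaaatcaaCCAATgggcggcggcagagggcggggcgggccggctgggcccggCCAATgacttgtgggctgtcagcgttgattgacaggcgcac
Tmpo: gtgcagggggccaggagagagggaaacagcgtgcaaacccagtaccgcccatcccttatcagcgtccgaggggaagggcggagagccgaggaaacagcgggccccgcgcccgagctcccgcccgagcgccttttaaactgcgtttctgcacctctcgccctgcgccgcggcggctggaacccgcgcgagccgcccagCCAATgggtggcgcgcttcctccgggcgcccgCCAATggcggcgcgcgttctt
Lbr: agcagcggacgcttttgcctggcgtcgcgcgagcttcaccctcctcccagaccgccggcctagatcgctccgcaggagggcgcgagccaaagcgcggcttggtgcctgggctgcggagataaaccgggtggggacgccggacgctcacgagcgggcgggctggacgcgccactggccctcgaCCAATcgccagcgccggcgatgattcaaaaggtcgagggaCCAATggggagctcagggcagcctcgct

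Of the 9 members with a promoter in the RefSeq table, CCAAT was found on either strand in 5: Lbr, Tmpo, Sun1 and Sun2 with 2 matches each and Emd with 1. Of 32841 promoter windows of all genes 33.9% held it at least once, and the share with 2 matches is not given here. The matches in Sun2 began 85 and 41 bases, in Tmpo 53 and 21 bases and in Lbr 68 and 28 bases before the start. Lmna, Lmnb2, Syne1 and Syne2 held none in the window searched. Only 1 window per gene was searched, while Lmna, Lmnb2, Tmpo and Sun1 have 2 RefSeq starts and Syne1 has 3. The motif was therefore present in genes that fell and in Emd and Sun1, which did not pass. It was absent from Syne2, which also fell. GGGCGG was found in all 9 (32.7% of windows). The member promoters were rich in G and C: 6 of the 9 had 68.0 to 70.8% GC, against a median of 52.4% over all promoters, so this share is not one of windows of like composition. CANNTG was found in Lmnb2, Emd, Syne1 and Syne2 (66.2%). The E2F motifs TTTCCCGC (0.895%) and TTTGGCGC (0.417%) and the amino acid response core TGATGNAAN (3.43%) were found in none. These motifs were chosen after the promoters had been seen, both strands were searched, matches of different motifs may overlap, and a match describes letters only.

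Around the 10 genes, 8 lists of related genes were read against the same background, 18.2% of all genes tested called higher and 18.9% lower. Of 11 other inner nuclear membrane genes 9 were tested, 2 rose and none fell (22.2% higher), with a median log2 fold change of 0.17. Nemp1, which encodes a membrane protein linked to emerin and nuclear stiffness, rose from 4.99 ± 1.21 to 10.5 ± 1.62 CPM (SD, n = 3, log2 1.07, edgeR adjusted p = 0.000939). Tmem43, the gene of the emerin and lamin partner LUMA, rose from 27.7 ± 3.31 to 43.2 ± 5.68 CPM (log2 0.64, adjusted p = 0.0019). Tor1aip2 (log2 0.24, adjusted p = 0.0945) and the LEM protein gene Lemd2 (log2 0.17, adjusted p = 0.206) did not pass. Without WT replicate 2, 4 of the 9 were called higher, and with library totals 8 were.

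Of the 8 related lists, that of muscle-enriched envelope proteins had the largest share of lower genes. Here 3 of 6 fell, against 18.9% of all genes tested, and 1 rose, with a median log2 fold change of -0.48. Muscle fibre markers, which are not among the 8 lists, fell more: 8 of 10 were called lower, with a median of -0.99. With library totals 6 of these 10 were called lower, with a median of -0.52. The part of this lower fibre RNA in the fall of the envelope genes was not tested. Tmem38a, a cation channel gene of the sarcoplasmic reticulum and nuclear envelope, fell from 680 ± 56.2 to 312 ± 0.616 CPM (SD, n = 3, log2 -1.12, edgeR adjusted p = 9.2e-06). Plpp7, whose protein ties chromosomes to the envelope in muscle nuclei, fell from 83.1 ± 14.8 to 39.1 ± 1.78 CPM (log2 -1.09, adjusted p = 4.67e-05), and Klhl31 from 1640 to 815 CPM (log2 -1.01). Tmem214 rose from 14.5 to 19.5 CPM (log2 0.43, adjusted p = 0.0134), a call that ended without WT replicate 3 or mKO replicate 3. With library totals 3 of the 6 were called lower and 3 higher.

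Of 12 other KASH, SUN and torsin genes 8 were tested and 1 rose (12.5%, against 18.2% of all genes tested). It was Tor3a, a torsin ATPase gene, which rose from 5.55 ± 1.57 to 13.1 ± 1.12 CPM (SD, n = 3, log2 1.24, edgeR adjusted p = 0.000296). Tor4a (log2 0.55, adjusted p = 0.0525), Syne3, the gene of the intermediate filament-binding nesprin (log2 0.32, adjusted p = 0.112), and Lrmp (log2 0.42, adjusted p = 0.193) did not pass. The median was 0.37, 3 of the 8 were called higher without WT replicate 2, and 7 with library totals. Sun5 had 0 counts in all 6 libraries and Sun3 had 1 count in all.

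Prelamin A is farnesylated and then trimmed to lamin A. Of 6 genes listed around this path, with Narf as a binding partner among them, 2 fell and none rose (33.3% lower), with a median of -0.37. Fnta, the alpha subunit of farnesyltransferase, fell from 96.0 ± 13.4 to 50.2 ± 3.93 CPM (SD, n = 3, log2 -0.94, edgeR adjusted p = 0.000103). Narf, whose product binds the prelamin A tail, fell from 170 ± 14.6 to 90.8 ± 4.42 CPM (log2 -0.90, adjusted p = 5.38e-05). Both were also called lower with library totals, and 1 of the 6 was then higher. Icmt (log2 -0.26, adjusted p = 0.125) and Rce1 (log2 -0.48, adjusted p = 0.166) did not pass. Zmpste24, the protease that trims prelamin A, named after its value was seen, had 41.9 ± 6.24 and 45.1 ± 5.37 CPM (adjusted p = 0.56).

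Of 8 chromatin factors of the lamina, 1 fell and none rose (12.5% lower, median -0.01). Hdac3, a histone deacetylase gene whose protein binds emerin and the beta form of the Tmpo product, fell from 41.7 ± 5.18 to 19.1 ± 0.530 CPM (SD, n = 3, log2 -1.12, edgeR adjusted p = 1.57e-05), and also with library totals, where 6 of the 8 were higher. L3mbtl3, Prr14 and Rb1 had log2 fold changes of 0.33, 0.34 and 0.22 (adjusted p = 0.0761, 0.101 and 0.177).

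On the cytoplasmic side, 5 of 16 partner genes rose (31.2%) and 3 fell (18.8%), with a median of 0.11. Macf1, a giant linker of actin and microtubules, rose from 344 ± 23.3 to 808 ± 41.3 CPM (SD, n = 3, log2 1.23, edgeR adjusted p = 4.85e-06). The dynein heavy chain gene Dync1h1 rose from 230 to 354 CPM (log2 0.62) and Akap6, an anchor protein gene of the muscle nuclear envelope, from 153 to 228 CPM (log2 0.57). Map7, which helps kinesin on microtubules and takes part in nuclear positioning, fell from 3.52 ± 0.775 to 1.11 ± 0.112 CPM (log2 -1.66, adjusted p = 0.000227). Without mKO replicate 1 the number called lower was 1. With library totals 12 were called higher and 1 lower.

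Of 28 nuclear pore genes 5 rose (17.9%) and 6 fell (21.4%), shares near the background, with a median of 0.04. The 5 higher calls became 1 without WT replicate 3 or mKO replicate 2, 3 without WT replicate 1, mKO replicate 1 or mKO replicate 3, and 0 at a threshold of 0.01. The lowest p-values belonged to 4 that fell: Nup133 (log2 -0.82), the membrane nucleoporin genes Nup210 (-0.61) and Ndc1 (-0.51), and Nup35 (-0.66), with edgeR adjusted p of 0.000102, 0.00225, 0.00441 and 0.00538. With library totals 17 were called higher and 1 lower. Of 9 ESCRT genes, which reseal the envelope, 2 fell (22.2%, near the background of 18.9%) and none rose (median 0.02). They were Vps4a (log2 -0.36, adjusted p = 0.0222) and Chmp7 (log2 -0.31, adjusted p = 0.0263). Of these 2 calls, 0 were left without mKO replicate 1 or mKO replicate 3, and 1 without WT replicate 1, WT replicate 3 or mKO replicate 2. Chmp4b (log2 -0.24, adjusted p = 0.117) and Ist1 (log2 0.20, adjusted p = 0.181) did not pass. With library totals none of the 9 was lower and 6 were higher.

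**Figure D4:**
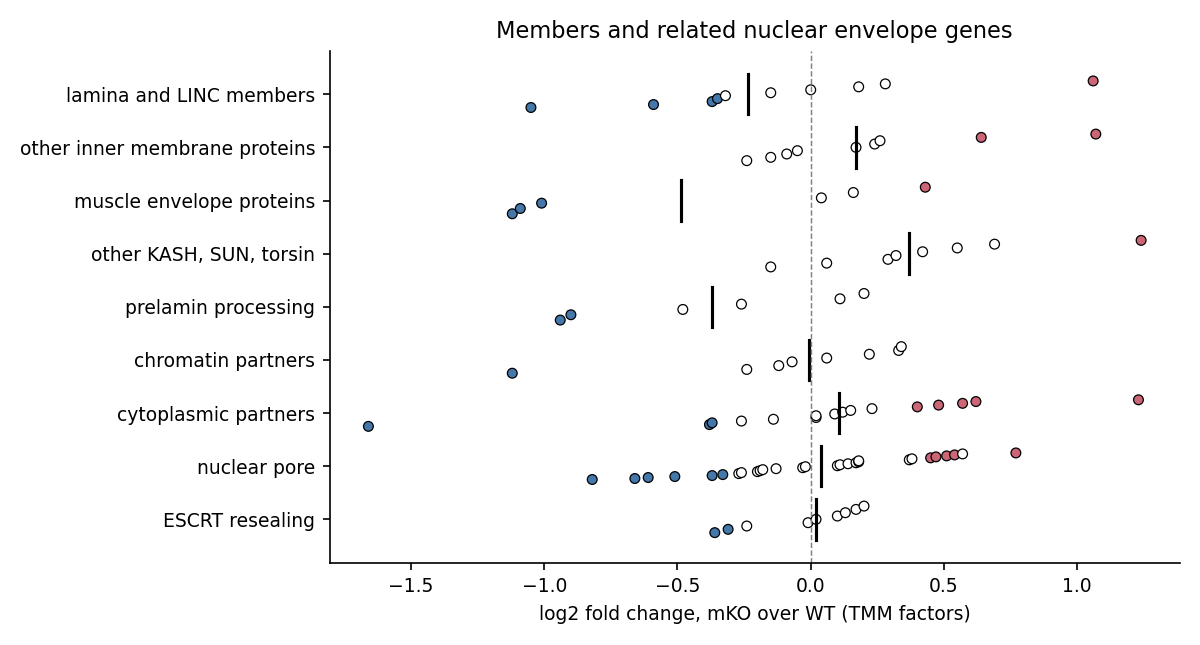
Log2 fold change, mKO over WT with TMM factors, of each tested gene (points, red called higher, blue called lower, white not called) in the 10 lamina and LINC genes and in 8 related lists, with a bar at the median. Muscle envelope proteins and prelamin processing genes have the lowest medians (-0.48 and -0.37), the 10 members follow at -0.24, and nuclear pore genes spread around 0.04.

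Markers of other cell types also differed between the groups. All 12 macrophage markers rose, with summed levels of 300.0 to 358 CPM in WT and 635 to 1040 CPM in mKO libraries. Of 10 fibro-adipogenic markers 4 rose and none fell (1840 to 1980 against 2290 to 2590 CPM). Of 10 endothelial markers 9 fell (334 to 429 against 208 to 226 CPM), as did 3 of 8 smooth muscle and pericyte markers, of which 1 rose (685 to 743 against 367 to 397 CPM). Satellite cell markers summed to 143 to 164 against 188 to 202 CPM, with 3 of 8 higher and 1 lower. Tenocyte markers summed to 318 to 421 against 556 to 676 CPM, with 2 of 6 higher. Erythroid markers summed to 14.6 to 18.5 against 3.35 to 6.63 CPM, and 2 of the 4 tested fell, Hbb-bs and Alas2. Neutrophil markers summed to 0.95 to 1.84 against 1.95 to 3.5 CPM, with 1 of 3 tested higher, Csf3r. Lymphocyte markers summed to 0.568 to 1.47 against 0.81 to 1.3 CPM, with 1 of 2 tested higher, Cd4. Single genes weighed heavily in some of these sums. Col3a1, a fibro-adipogenic marker, rose from a mean of 487 to 1020 CPM. Dcn of that list went from 887 to 759 CPM and was not called. The pericyte marker Rgs5 fell from 581 to 258 CPM, and the tenocyte marker Thbs4 rose from 225 to 440 CPM. Itga7, a satellite cell marker, rose from 63.5 to 97.8 CPM. The marker genes named in this paragraph were named after their values were seen. Schwann cell and adipocyte markers had no calls with TMM factors. Their sums were 47.2 to 54.9 against 34.3 to 80.9 CPM and 33.3 to 75.4 against 40.7 to 90.4 CPM. With library totals 3 endothelial markers were called lower, and 9 fibro-adipogenic, 4 tenocyte and 12 macrophage markers higher. Satellite cell markers then had 5 higher and 0 lower, and smooth muscle and pericyte markers 2 higher and 2 lower. Of the others, 2 erythroid markers were lower, and 2 neutrophil, 1 lymphocyte and 1 Schwann cell marker higher. The part of these cells in the levels of Lmna, Sun2 or any other member was not tested.

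Markers of dividing cells rose, 14 of 16, from sums of 46.6 to 49.7 CPM to sums of 106 to 117 CPM. With library totals all 16 were called higher. Lmnb1, Tmpo and Lbr, which dividing cells express highly, were not called higher with TMM factors: Lmnb1 had log2 0.18, and Tmpo and Lbr fell. With library totals Lmnb1 was called higher (log2 0.65), and Tmpo (-0.12) and Lbr (0.10) were not called. The part of dividing cells in their levels was not tested.

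Nearest to Lmna in shape over the 6 libraries, among 11896 named genes with a mean of at least 1 CPM, were Sh3pxd2b, Cbx2 and Sirpa. Their centred log2(CPM + 0.5) differed from that of Lmna by a root mean square of 0.0382, 0.0472 and 0.0679. Sh3pxd2b had 9.92, 9.01 and 8.22 CPM in WT and 19.9, 18.7 and 19.2 CPM in mKO libraries. Cbx2 is a low gene (0.364 to 1.67 CPM) whose change the added 0.5 compresses, with a fitted log2 fold change of 1.82. Nearest to Sun2 were Asb2, Sbk2 and Fzd6, at 0.0428, 0.0683 and 0.0771. Asb2, a ubiquitin ligase gene of muscle, had 345, 379 and 288 CPM in WT and 168, 165 and 168 CPM in mKO libraries, and shared with Sun2 its order among the WT libraries. Likeness over 6 libraries in 2 separate groups is a description only.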

How the data were processed

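Messenger RNA abundance was measured in 6 libraries of mouse gastrocnemius. Per the labels' protocols, Trizol was used for RNA and an NEBNext Ultra kit for libraries. The deposited values are raw counts per Ensembl gene, 1 table per library, summed over the listed exons per the file headers. The submitters' processing notes name Trimmomatic 0.36, STAR 2.5.2b, featureCounts of Subread 1.5.2 and the GRCm38 build. The sources used here state no strand, pair or multimapping setting, so reads in overlapping genes are uncertain. Of 49315 identifiers 48970 had a symbol. All 223 listed symbols were matched, 3 of them through another symbol.

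Groups came from the sample titles. Replicates differed beyond counting noise (chi-square per degree of freedom 20.9 to 57.7). Genes were tested by edgeR (4.0.16, under R 4.3.3) with its quasi-likelihood F test after TMM scaling and filterByExpr, and Benjamini-Hochberg adjustment over 16650 genes, threshold 0.05. It was run on simulated data with far fewer changed genes, in random directions, which cannot check the TMM scaling used here. Intervals are 95% intervals of the fitted log2 value. Ratios used counts per kb of exon with exact permutation tests over libraries. Counting error refers to Poisson noise only. Alternatives were other scaling factors, filters, DESeq2 1.42.0, limma-voom (limma 3.58.1), robust dispersion, a stricter threshold, fewer genes, a replicate block and leaving out each library. The members and lists were chosen with earlier results of these data known. Named were all 10 members, up to 4 genes of each related list by lowest p, and 3 nearest genes for each of 2 members. Of genes related to the lamina, splicing forms were not analysed here. Promoters came from RefSeq.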

Additional observations from a re-analysis of the deposited data

How the results depend on the processing

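The number of changed genes was 6166 (3022 higher, 3144 lower). Library totals gave 9283 (8159 higher, 1124 lower), and an adjusted p threshold of 0.01 gave 3973 (1867 higher). Leaving out each library gave 4766 to 6255 changed genes, with 2350 to 3065 higher and 2416 to 3190 lower.

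Of the members, 1 was called higher and 4 lower. Library totals gave 5 higher and 1 lower, upper-quartile factors and the threshold of 0.01 each 2 lower, and leaving out each library 1 higher and 2 to 5 lower, with 2 without mKO replicate 1 or mKO replicate 3. The replicate block (same-numbered libraries as pairs) left 5519 changed genes, with 1 member higher and 4 lower. Deviations of same-numbered libraries correlated at -0.00202 to 0.0224, so no shared deviation was seen. This cannot show whether same-numbered libraries shared an origin or a preparation.

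Of 160 refitted member values, 135 kept their direction and their side of the threshold, 10 lost the call, 5 gained it and 10 turned. With library totals the turned log2 values were 0.10 for Lbr, 0.31 for Sun1, 0.14 for Syne1, 0.12 for Syne2 and, beside the members, 0.27 for Hnrnpu. The others were Emd, which lay at 0.00027: -0.005 with RLE factors, -0.0047 with DESeq2, -0.01, -0.07, -0.05 and -0.00018 without WT replicate 1, WT replicate 3, mKO replicate 1 and mKO replicate 2 (range over left-out libraries -0.07 to 0.07). The log2 ratio differences spanned, with each library left out, 0.67 to 1.01 for Lmna to B-type lamins, 0.75 to 0.99 for Sun1 to Sun2, 0.39 to 0.78 for Emd to Tmpo and -0.11 to 0.12 for Syne1 to Syne2. That of Syne1 to Syne2 lay at -0.0019 and turned to 0.02, 0.06 and 0.12 without WT replicate 1, WT replicate 3 and mKO replicate 1. Of 272 refitted counts of the related lists, 36 moved by over 1.5 times. The cause of these shifts was not tested, except that library totals shift all genes together. The B-type lamins, at 106 to 259 counts a library, were the members that depth limited most.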

Other observations

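Gene length went with the differences between single libraries and, for short genes, between the groups. Among 769 genes with at most 1500 bp of exon and a mean of at least 5 CPM, the median gene lay 0.17 above the other mKO libraries in mKO replicate 1 and 0.18 below them in mKO replicate 2, on the log2 scale. The median log2 fold change between the groups was -0.25 for these genes and -0.12 for 1988 genes of 1500 to 3000 bp, the range of Emd and Lmnb1. It was -0.06 for 2614 genes of 3000 to 5000 bp, the range of Sun2, and -0.02 for 2324 genes of 5000 to 8000 bp, the range of Lmna. For 1186 genes of 8000 to 12000 bp, the range of Tmpo, it was 0.01. Ratios of members from different length classes were not corrected for this trend. The single WT libraries deviated by at most 0.05 in the shortest class, and WT replicate 2 lay 0.1 below the other WT libraries for the 81 longest genes.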
